A study of Mus musculus with 16 samples.

Results

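The 73 potassium channel genes described here are the protein-coding mouse genes whose GRCm38 symbol starts with Kcna, Kcnb, Kcnc, Kcnd, Kcne, Kcnf, Kcng, Kcnh, Kcnk, Kcnm, Kcnn, Kcnq, Kcns, Kcnt or Kcnv and goes on with a subunit number. They are 73 of the 51912 genes in the count table. The inward rectifiers (Kcnj) were left out, as were 5 antisense RNAs with matching names (Kcnab3os, Kcnd3os, Kcnmb4os1, Kcnmb4os2 and Kcnq1ot1). By role they fall into 14 classes, from pore-forming voltage-gated subunits to accessory subunits.

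The RNA came from sorted nuclei of the colonic muscle layer and its myenteric plexus in C57BL/6 mice kept specific pathogen-free. All mice had received AAV9-CaMKII-EGFPKASH, a virus that puts a green fluorescent protein on the nuclear envelope under the CaMKII promoter, 5 weeks before isolation. EGFP+ nuclei were collected as neuronal and EGFP- nuclei as non-neuronal. The mice received either 3-methylcholanthrene, an agonist of the aryl hydrocarbon receptor (AhR, a ligand-activated transcription factor), or corn oil as the control, 14 h before isolation. Each of the 4 groups (neuronal control, neuronal agonist, non-neuronal control and non-neuronal agonist) has 4 libraries, 16 in all. EGFP- nuclei are a mixture that can hold every cell type of the layer and any neuron without EGFP, and the CaMKII promoter may leave out some neurons. Whether libraries within a group came from separate mice is not in the labels, so p-values measure the spread between these libraries, which may be technical. The column headers of the count table carry a project name that mentions wild type and Ahr knockout, while the labels name C57BL/6 mice and no knockout. Ahr had 51 to 564 counts in every library, but counts over a whole gene do not show whether part of it is deleted.

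Potassium channels let potassium leave the cell and so pull the membrane towards its resting level. Voltage-gated (Kv) channels end each action potential and set how fast a neuron can fire again, Kv7 channels carry the slow M-current that restrains repetitive firing, and calcium-activated BK and SK channels and sodium-activated channels lengthen the pause after spikes. K2P channels (the Kcnk genes) carry the leak current at rest. In the gut the same families also act outside neurons: BK channels with their beta1 subunit limit smooth muscle contraction, SK3 is known from PDGFRA-positive cells of the muscle layer, and Kcne3 works with Kcnq1 in the basolateral membrane of the colonic epithelium.

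The 16 libraries held 2663738 to 4902303 counts. Mitochondrially encoded genes, a sign of RNA from outside the nucleus, took 1.77% to 6.11% of counts in neuronal libraries and 10.3% to 42.8% in non-neuronal ones, with non-neuronal agonist replicates 1 (42.8%) and 2 (33.3%) the highest. Neuronal agonist replicate 1 had the fewest genes with a count, 17293, while the other 15 libraries ranged upward from 19683. Summed levels of pan-neuronal, smooth muscle and epithelial markers went with the sort. The 8 pan-neuronal markers reached 1839 to 2998 CPM (counts per 1000000 counts of the library) in neuronal libraries and 27.7 to 311.6 in non-neuronal ones, and the 6 smooth muscle markers 219.4 to 1064 and 1578 to 12260 in the same order. All 8 pan-neuronal markers were higher in neuronal than in non-neuronal nuclei of control mice, and 7 of 7 tested were higher in agonist mice. Epithelial markers, from the layer the muscle is peeled off, reached 825.7 to 10780 CPM in non-neuronal libraries and 4.29 to 97.1 in neuronal libraries. Sums of the 3 markers of interstitial cells of Cajal overlapped, at 476 to 572 CPM in neuronal control and 170 to 530.2 in non-neuronal control libraries. In agonist mice they were 327.7 to 461 and 119.9 to 339 CPM. These sums mix opposite directions. In neuronal nuclei of control mice Kit and Ano1 were lower (log2 fold changes -5.49 and -4.79) and Etv1 was higher (1.75). Kit and Ano1 were lower in agonist mice too (-4.21 and -4.65), where Etv1 did not pass the test (1.03). Sums of the 5 glia markers overlapped in control mice, at 8.21 to 26.15 and 21.76 to 75.89 CPM in the same order, and did not in agonist mice.

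Promoter windows, the 250 bases before a transcript start in RefSeq (GRCm38.p6), were found for 51 of the 73 genes, in 67 windows. They are shown for Kcng3 and Kcnd2, which were much higher in neuronal nuclei, and for Kcnmb1 and Kcnf1, which were higher in non-neuronal nuclei, to show how far apart windows of the family lie in base composition. They were chosen after their values were seen, and Kcng3 had the most CG dinucleotides of the windows of called genes and Kcnmb1 and Kcnf1 the fewest, together with a window of Kcnab1, a gene that was higher. CG dinucleotides are in capitals, the strand is that of the gene, and the text runs 5′ to 3′ up to the base before the start.
Kcng3, chr17:83631896-83632145, minus strand: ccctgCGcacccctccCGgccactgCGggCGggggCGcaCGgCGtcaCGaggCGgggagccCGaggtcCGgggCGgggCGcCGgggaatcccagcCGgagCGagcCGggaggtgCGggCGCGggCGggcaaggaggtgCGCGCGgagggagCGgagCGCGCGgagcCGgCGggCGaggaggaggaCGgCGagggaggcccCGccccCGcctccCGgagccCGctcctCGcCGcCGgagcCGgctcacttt
Kcnd2, chr6:21215096-21215345, plus strand: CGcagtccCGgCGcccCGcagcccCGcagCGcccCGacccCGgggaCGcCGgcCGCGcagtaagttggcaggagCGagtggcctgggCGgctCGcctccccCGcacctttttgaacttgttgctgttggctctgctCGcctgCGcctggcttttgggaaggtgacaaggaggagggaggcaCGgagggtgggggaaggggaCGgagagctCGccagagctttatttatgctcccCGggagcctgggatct
Kcnmb1, chr11:33962763-33963012, plus strand: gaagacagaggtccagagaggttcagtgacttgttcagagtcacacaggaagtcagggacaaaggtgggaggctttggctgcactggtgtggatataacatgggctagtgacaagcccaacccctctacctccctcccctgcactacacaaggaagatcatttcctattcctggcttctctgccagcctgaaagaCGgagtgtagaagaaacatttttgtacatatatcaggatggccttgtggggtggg
Kcnf1, chr12:17176889-17177138, minus strand: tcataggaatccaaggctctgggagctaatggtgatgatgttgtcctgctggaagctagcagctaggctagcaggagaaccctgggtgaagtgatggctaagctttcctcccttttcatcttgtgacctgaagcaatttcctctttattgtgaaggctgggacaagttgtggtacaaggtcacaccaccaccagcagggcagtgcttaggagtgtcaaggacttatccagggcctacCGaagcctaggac
The Kcng3 window held 41 CG dinucleotides and 82.4% G or C, and the Kcnd2 window 22 and 68.8%. The Kcnmb1 window held 1 CG and 50.8% G or C, and the Kcnf1 window 1 and 51.2%. Over the 21 windows of 14 genes that were higher in neuronal nuclei under either treatment the median was 14 CG and 61.6% G or C, with a range of 1 to 41 CG. Over the 4 windows of 3 genes that were lower it was 2 CG and 51.0%, with a range of 1 to 10 CG that lies within that of the higher genes, and no test was run. Over all 32851 RefSeq windows the median was 6 CG and 52.4%.

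The core of the AhR response element, GCGTG on either strand, occurred in 18 of the 67 windows (26.9%), against 28.2% of all windows of the same length. Of the 21 windows of genes higher in neuronal nuclei of control mice, 3 held it, those of Kcnd3, Kcnh8 and Kcnk10. It is shown in capitals for 1 of the 2 starts of Kcnk10, the one inside the annotated gene, where it reads CACGC on the gene's strand and lies 132 bases before the start.
Kcnk10, chr12:98575128-98575377, minus strand: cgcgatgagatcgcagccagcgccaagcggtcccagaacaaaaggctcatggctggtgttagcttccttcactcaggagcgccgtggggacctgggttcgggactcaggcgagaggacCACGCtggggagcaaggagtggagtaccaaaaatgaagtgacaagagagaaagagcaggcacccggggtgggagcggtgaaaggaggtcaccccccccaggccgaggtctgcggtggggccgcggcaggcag
TATAAA was in none of the 67 windows and in 12.4% of all windows, and the serum response factor's CArG box in none and in 1.47% of all. A match is a run of letters and not a shown binding site.

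Of the 73 genes, 46 passed the filter on low counts in at least 1 comparison and 27 in none. Those 27 had 0 to 237 counts over all 16 libraries, with a median of 53, and Kcna7 had none. Levels below are CPM scaled by TMM (trimmed mean of M values) over the 16 libraries, and fold changes are on the log2 scale from edgeR's quasi-likelihood test on the libraries compared. A gene counts as called where its adjusted p (Benjamini-Hochberg, taken over all genes in the test) is under 0.05. In sorted bulk nuclei, fewer cells of a type and less RNA per cell cannot be told apart.

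**Figure D1:**
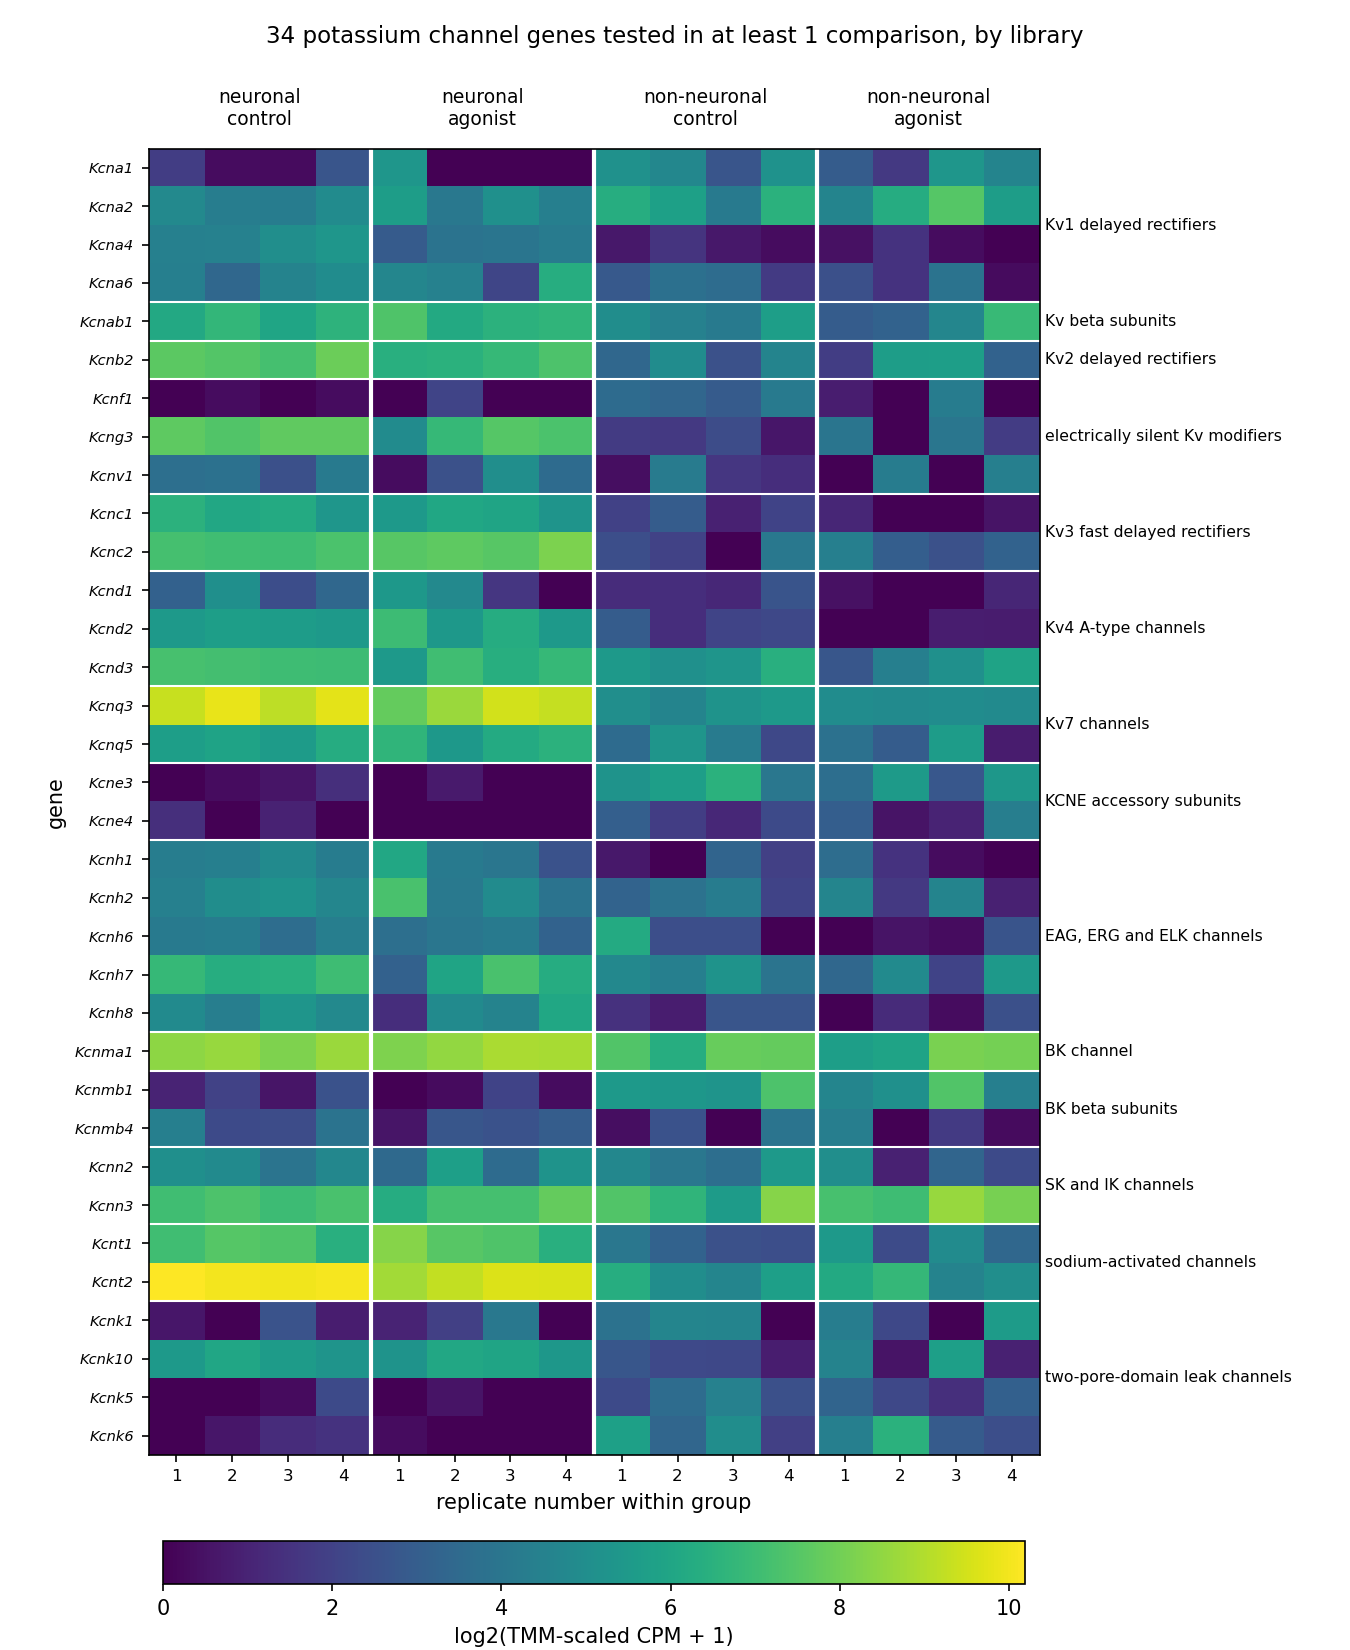
Heat map of 34 potassium channel genes tested in at least 1 comparison and named in the text (rows, by role class) in each of the 16 libraries (columns, by group and replicate number), with colour giving log2(TMM-scaled CPM + 1). Kcnt2 and Kcnq3 are the brightest rows in all 4 neuronal control libraries, while Kcne3 and Kcnmb1 are bright in the non-neuronal libraries.

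The family's summed level was higher in neuronal nuclei. It was 4257 ± 260.9 CPM (SD, n = 4) in neuronal control, 3647 ± 439.1 in neuronal agonist, 1137 ± 322.6 in non-neuronal control and 1126 ± 395.8 in non-neuronal agonist libraries. Kcnt2 (mean 1063 CPM) and Kcnq3 (758.1) were its largest parts in neuronal control libraries. Not every class went this way. In control mice the sums of Kv1, of SK and IK, and of K2P channels overlapped between populations. Those of KCNE and BK beta subunits were lower in neuronal nuclei. In control mice 39 of the 73 genes were tested, 21 were higher in neuronal nuclei and 4 (Kcna1, Kcne3, Kcnf1 and Kcnmb1) were lower. Over all 15285 genes tested, 11.8% were higher, 13.5% lower and 25.4% called in either direction. The median log2 fold change of the 39 genes was 1.45, against -0.11 over all genes. In 24 of the 39 the 4 neuronal and 4 non-neuronal libraries did not overlap, which held for 30.6% of all genes. In agonist mice 38 genes were tested, 10 were higher and 3 (Kcne3, Kcnk6 and Kcnmb1) were lower, with a median of 1.72 against -0.15 over all genes. The background there was 6.67% higher, 6.97% lower and 13.6% in either direction of 14065 genes tested, and 16 of the 38 did not overlap, against 21.6% of all genes. Higher under both treatments were 9 genes and lower under both were 2 (Kcne3 and Kcnmb1). These 11 are 44% of the genes called in control mice and 84.6% of those called in agonist mice. Over all genes, 1486 were called in the same direction under both, 38.3% of those called in control mice and 77.5% of those called in agonist mice.

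**Figure D2:**
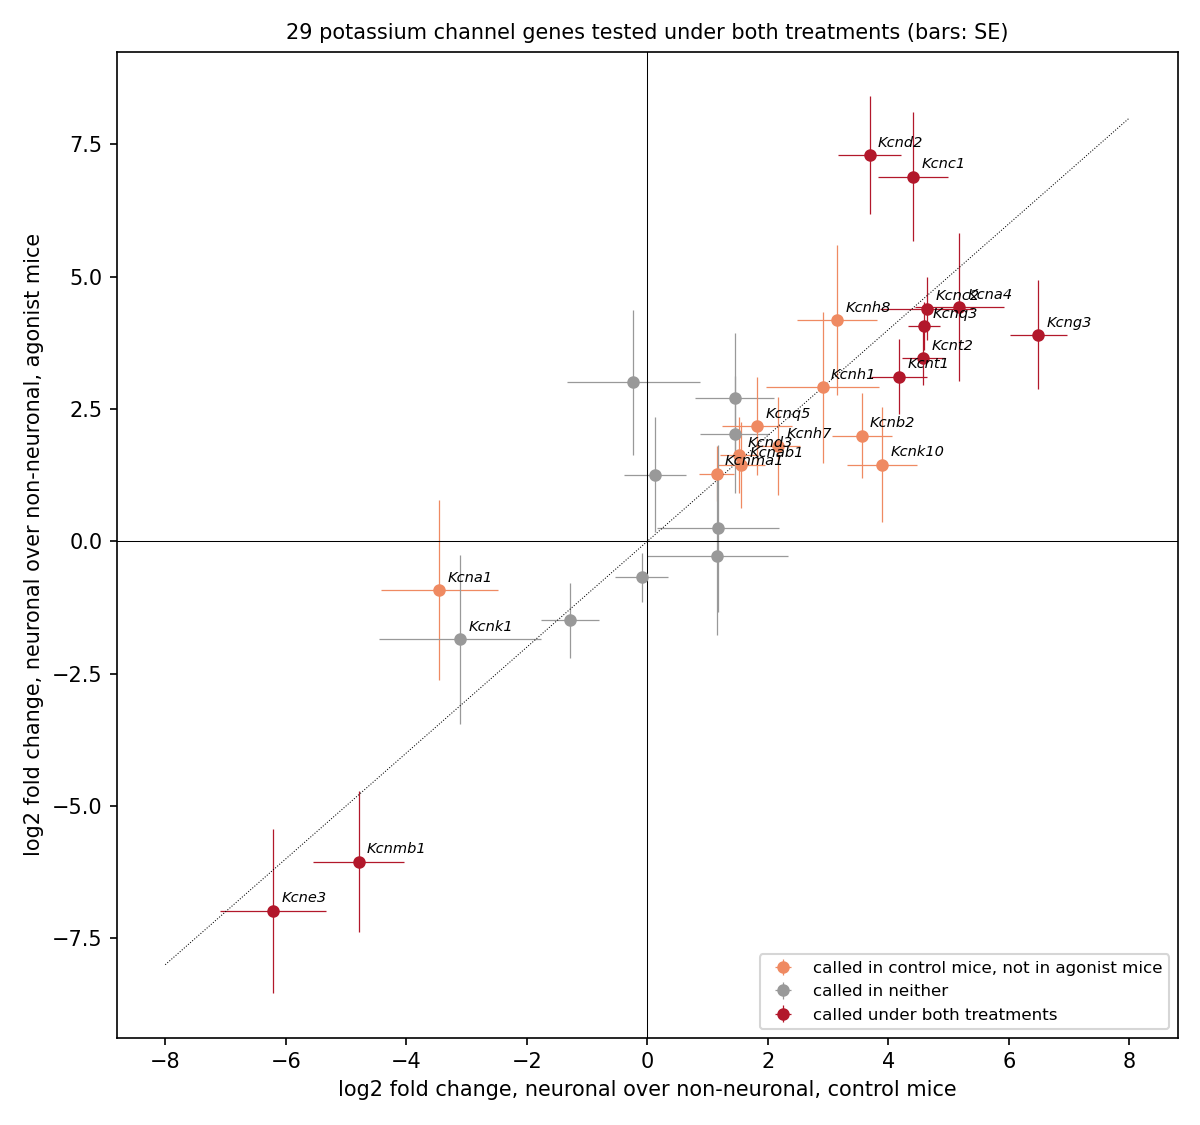
Each point is 1 of 29 potassium channel genes tested under both treatments and named in the text, with its log2 fold change of neuronal over non-neuronal nuclei in control mice (x axis) and in agonist mice (y axis), bars giving the SE and the dotted line equal values. Kcne3 and Kcnmb1 lie at the lower left, and the genes higher under both treatments, among them Kcnt2, Kcnq3, Kcnc2 and Kcnd2, at the upper right.

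The sodium-activated channels took 26.3% to 30.4% of the family's counts in each neuronal control library. Kcnt2 (ENSMUSG00000052726, chromosome 1, 140246158 to 140612067), which encodes the channel subunit called Slick, stood at 1167, 1017, 995 and 1072 CPM in neuronal control replicates 1 to 4 and at 436, 602, 809 and 790 CPM in the neuronal agonist replicates. Non-neuronal libraries gave 81.4, 31.2, 24.2 and 52.3 CPM in control and 72.5, 108, 22.2 and 31.9 CPM in agonist replicates 1 to 4. All 8 neuronal libraries lay above all 8 non-neuronal ones. The log2 fold change was 4.58 (SE 0.36, adjusted p = 3.95e-06) in control and 3.46 (SE 0.51, adjusted p = 0.000561) in agonist mice, and in agonist mice it was 4.70 without the libraries over 30% mitochondrial counts. Per kb of exon Kcnt2 had the highest level of the family in neuronal nuclei, 154 ± 11.1 CPM per kb (SD, n = 4) in control libraries. Kcnt1, the related subunit called Slack, was higher by 4.18 (SE 0.46, adjusted p = 3.73e-05) in control and by 3.11 (SE 0.71, adjusted p = 0.00847) in agonist mice.

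Kv7 channels made up 24.2% to 29.7% of the family's counts in neuronal control and 9.14% to 14.0% in non-neuronal control libraries. Kcnq3 (chromosome 15, 65986387 to 66286642), a pore subunit of the M-channel, reached 645, 932, 584 and 872 CPM in neuronal control replicates 1 to 4 and 31.4, 22.9, 36.5 and 43.0 CPM in the non-neuronal control replicates. In agonist mice it read 220, 400, 717 and 633 CPM in neuronal and 30.2, 28.0, 29.8 and 28.0 CPM in non-neuronal libraries. The groups did not overlap under either treatment, and the log2 fold change was 4.59 (SE 0.27, adjusted p = 8.14e-07) in control and 4.07 (SE 0.45, adjusted p = 7.83e-05) in agonist mice.

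Kcnq5, another Kv7 gene, was called in control mice (1.82, SE 0.58, adjusted p = 0.0341) but not in agonist mice (2.18, SE 0.93, adjusted p = 0.15), and its control call was lost on leaving out any of 6 of the 8 libraries, all except non-neuronal control replicates 2 (2.53 without it) and 4. An antisense gene, Gm26580, overlaps Kcnq5, and the strand setting of the counting is not given in the sources used here. Kcnq1, the epithelial and cardiac Kv7 gene, had 153 counts over all libraries and was not tested, and it shares its locus with the antisense RNA Kcnq1ot1, which had 71065.

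**Figure D3:**
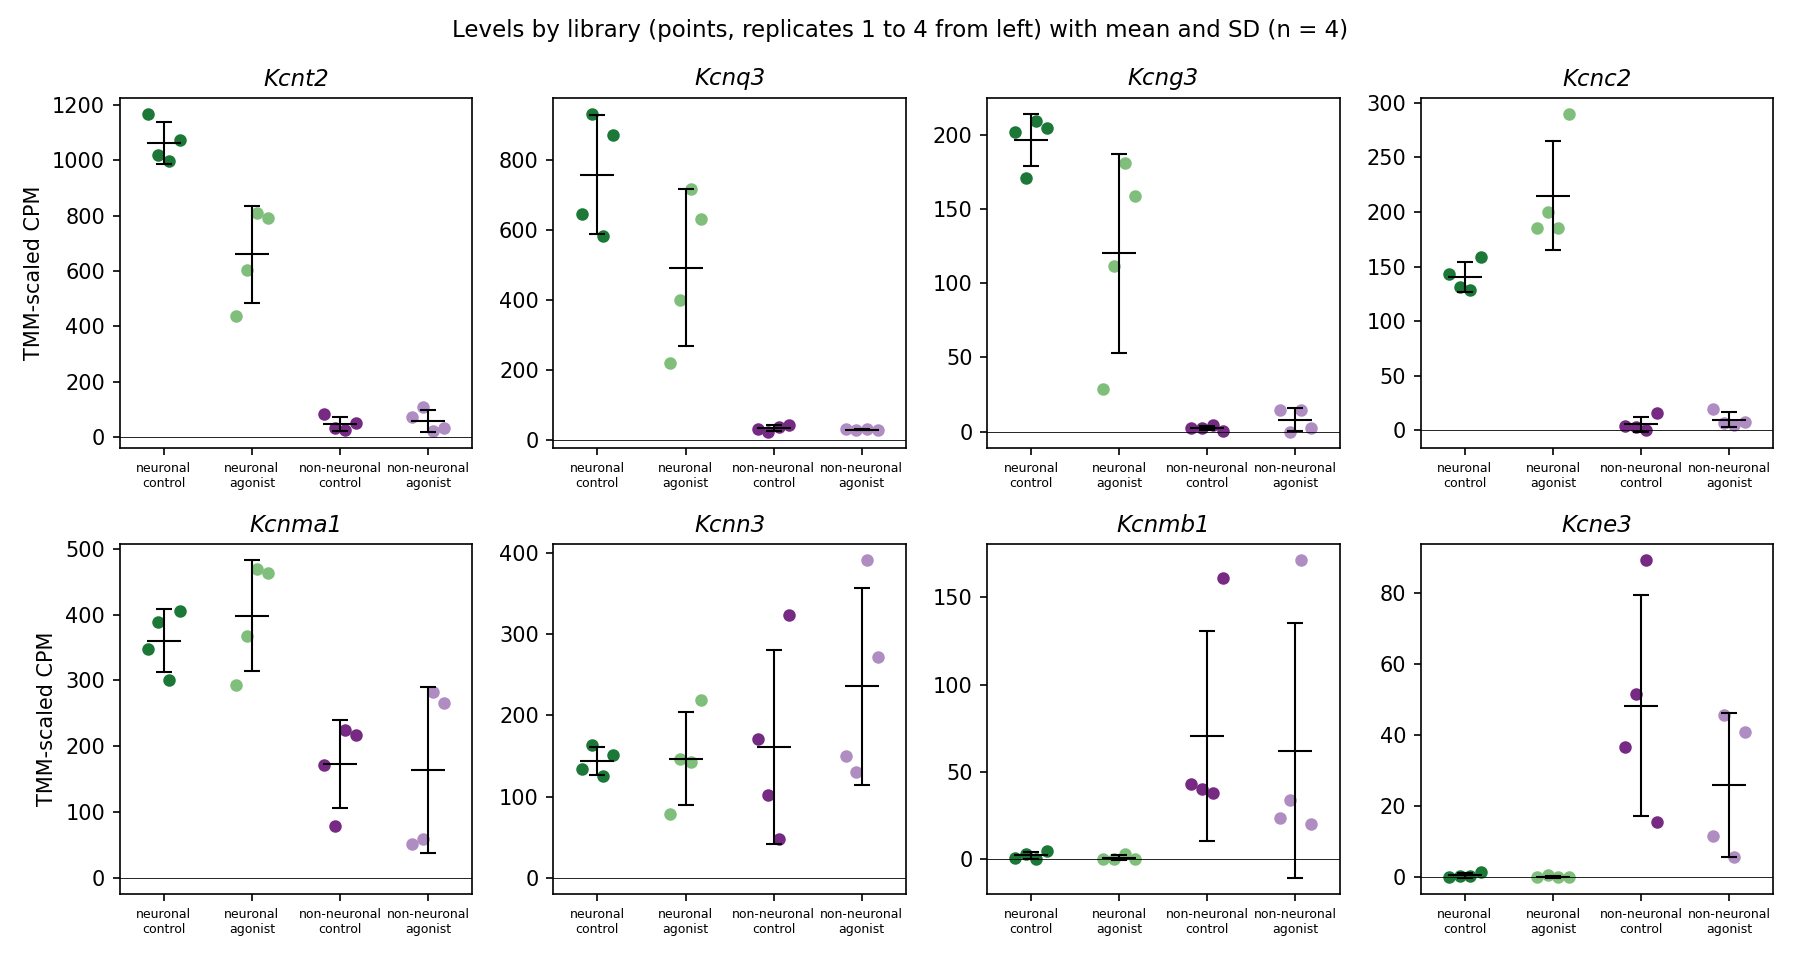
Levels (TMM-scaled CPM, linear axis, each panel on its own scale) of 8 potassium channel genes in the 16 libraries, with points for replicates 1 to 4 from left to right in each group and lines for the mean and SD (n = 4). Kcnt2, Kcnq3, Kcng3 and Kcnc2 are high in neuronal groups, Kcnn3 overlaps in all 4 groups, and Kcnmb1 and Kcne3 are near 0 in neuronal groups.

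The Kv3 genes encode fast delayed rectifiers that let neurons fire at high rates, and Kcnc1 and Kcnc2 were higher under both treatments. Kcnc2 (Kv3.2; chromosome 10, 112271121 to 112467024) had 144, 132, 128 and 158 CPM in neuronal control and 4.44, 3.00, 0 and 15.8 CPM in non-neuronal control libraries. The agonist libraries read 185, 200, 185 and 290 CPM in neuronal and 20.03, 7.22, 4.71 and 8.10 CPM in non-neuronal nuclei. Neuronal values were above every non-neuronal value, with log2 fold changes of 4.64 (SE 0.77, adjusted p = 0.000692) in control, 5.93 without non-neuronal control replicate 4, and 4.40 (SE 0.60, adjusted p = 0.000304) in agonist mice, 5.15 without the libraries over 30% mitochondrial counts. Kcnc1 (Kv3.1) had 91.6, 68.2, 73.7 and 40.3 CPM in neuronal control and 2.96, 6.76, 0.897 and 3.11 CPM in non-neuronal control libraries. It had 43.1, 66.3, 60.5 and 37.2 CPM in neuronal agonist and 1.13, 0, 0 and 0.463 CPM in non-neuronal agonist libraries. Its log2 fold changes were 4.41 (SE 0.58, adjusted p = 0.00014) and 6.89 (SE 1.22, adjusted p = 0.00174), the latter resting on 5 counts in the 4 non-neuronal agonist libraries and reading 7.90 without non-neuronal agonist replicate 1 and 7.67 without replicates 1 and 2, those over 30% mitochondrial counts.

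The Kv4 genes carry the A-type current, which opens below the spike threshold and delays firing, and all 3 were higher in control mice. Kcnd2 (Kv4.2; chromosome 6, 21215503 to 21729805) stood at 43.2, 51.0, 48.6 and 43.9 CPM in neuronal control and 6.80, 1.50, 3.29 and 3.62 CPM in non-neuronal control libraries. In agonist mice the neuronal libraries had 125, 42.5, 77.3 and 43.9 CPM and the non-neuronal ones 0, 0, 0.784 and 0.695 CPM. The log2 fold change was 3.69 (SE 0.52, adjusted p = 0.000221) in control and 7.30 (SE 1.11, adjusted p = 0.000657) in agonist mice, where the non-neuronal libraries held 6 counts in all, and 6.64 without the 2 libraries over 30% mitochondrial counts. Kcnd3 (Kv4.3) had 147, 142, 128 and 125 CPM in neuronal control and 44.4, 33.8, 38.3 and 84.4 CPM in non-neuronal control libraries, without overlap, and was higher by 1.52 (SE 0.32, adjusted p = 0.00355). In agonist mice the groups of Kcnd3 overlapped and it did not pass edgeR's quasi-likelihood test (1.63, SE 0.72, adjusted p = 0.164). Kcnd1 was called at 2.58 (SE 0.87, adjusted p = 0.0447), but its groups overlapped and the call was lost on leaving out any of 6 of the 8 libraries (1.75, adjusted p = 0.245, without neuronal control replicate 2, where it was highest) and without the filter on low counts (adjusted p = 0.0577). Without non-neuronal control replicate 4 it was 3.37 (adjusted p = 0.0159).

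Kv2 delayed rectifiers and the electrically silent subunits that assemble with them went in part together. Kcnb2 (Kv2.2) had 194, 176, 146 and 239 CPM in neuronal control and 9.47, 30.03, 4.79 and 23.3 CPM in non-neuronal control libraries, a log2 fold change of 3.56 (SE 0.50, adjusted p = 0.000206). In agonist mice its 4 neuronal libraries, at 86.0, 89.5, 111 and 161 CPM, were again above the non-neuronal ones, at 2.65, 50.1, 50.7 and 8.10 CPM, but the gene did not pass the test (2.0, SE 0.80, adjusted p = 0.120). Kcng3 (Kv6.3; chromosome 17, 83585957 to 83631895), a silent subunit that forms no channel by itself and modifies Kv2, had the largest positive fold change of the family in control mice. It had 202, 171, 209 and 205 CPM in neuronal control and 2.37, 2.25, 4.19 and 0.518 CPM in non-neuronal control libraries, a log2 fold change of 6.49 (SE 0.47, adjusted p = 2.50e-06). Per kb of exon it ranked second to Kcnt2 in neuronal control libraries, at 58.6 ± 5.23 CPM per kb (SD, n = 4), next to Kcnq3 at 51.5 ± 11.6, whose libraries overlapped it.

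Kcng3 was more uneven in agonist mice, at 29.0, 112, 181 and 159 CPM in neuronal and 14.7, 0, 14.9 and 2.55 CPM in non-neuronal libraries. The groups did not overlap (3.90, SE 1.03, adjusted p = 0.0194), and the call was lost without neuronal agonist replicate 3 (3.69, adjusted p = 0.0541) or non-neuronal agonist replicate 4 (3.60, adjusted p = 0.0502). Another silent subunit, Kcnf1 (Kv5.1; chromosome 12, 17172100 to 17176888), went the other way. It had 0, 0.257, 0 and 0.262 CPM in neuronal control and 10.9, 9.38, 6.58 and 16.8 CPM in non-neuronal control libraries, or 2 against 149 counts. The ratio of these pooled counts, each over the total counts of its libraries and without TMM, was 0.0147 (95% exact interval 0.00176 to 0.0540, counting error only). The fitted log2 fold change was -6.0 (SE 1.08, adjusted p = 0.00116). Of the 10 silent subunit genes, 3 were tested in control mice, and Kcnv1, a Kv8 silent subunit, did not pass (1.17, SE 1.01, adjusted p = 0.452), with 12.04, 12.8, 4.59 and 17.3 CPM in neuronal control and 0.296, 18.02, 2.09 and 1.55 CPM in non-neuronal control libraries.

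Of the 8 Kv1 genes, which set spike threshold in axons and terminals, 4 were tested in control mice, and they differed in direction. Kcna4 (Kv1.4, an A-type channel) had 20.7, 21.0, 31.4 and 40.3 CPM in neuronal control and 0.592, 1.88, 0.598 and 0.259 CPM in non-neuronal control libraries (5.18, SE 0.74, adjusted p = 0.000229), and 5.87 without non-neuronal control replicate 2. In agonist mice it was 4.43 (SE 1.40, adjusted p = 0.0483), a call lost on leaving out any library except non-neuronal agonist replicate 2 (5.80 without it) and without the filter on low counts (4.54, adjusted p = 0.118). It was 6.46 without the libraries over 30% mitochondrial counts. Kcna1 (Kv1.1) was lower in neuronal nuclei of control mice, at 2.62, 0.257, 0.242 and 5.49 CPM against 34.6, 25.5, 5.38 and 35.2 CPM (-3.45, SE 0.97, adjusted p = 0.0181). Neuronal control replicate 4 lay just above non-neuronal control replicate 3, and without the former the value was -4.44. Kcna2 (Kv1.2) had 26.97, 18.7, 18.6 and 29.02 CPM in neuronal control and 80.2, 54.4, 17.04 and 88.8 CPM in non-neuronal control libraries and did not pass (-1.28, SE 0.48, adjusted p = 0.0698). Its 3 highest non-neuronal control libraries were above all neuronal ones, and replicate 3 was below them. Kcna6 (Kv1.6) had 19.9, 9.49, 22.7 and 29.8 CPM and 6.21, 12.4, 11.1 and 2.33 CPM in the same groups, which overlapped, and did not pass (1.45, SE 0.65, adjusted p = 0.124). The Kv beta subunit Kcnab1, which binds Kv1 channels, had 70.4, 105, 62.8 and 96.5 CPM in neuronal control and 30.8, 21.02, 17.04 and 51.3 CPM in non-neuronal control libraries. It was higher by 1.56 (SE 0.40, adjusted p = 0.0106) in control mice, and the antisense gene A330015K06Rik overlaps it. In agonist mice the groups of Kcnab1 overlapped and it did not pass edgeR's quasi-likelihood test (1.44, SE 0.81, adjusted p = 0.291).

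Among the EAG, ERG and ELK channels, slow voltage-gated channels with a cyclic-nucleotide-binding-like domain, 3 of 5 tested were higher in control mice and 0 of 6 passed in agonist mice, with medians of 2.17 and 2.46. Kcnh7 (Erg3) was higher by 2.17 (SE 0.36, adjusted p = 0.00068) and Kcnh8 by 3.15 (SE 0.67, adjusted p = 0.00359). In agonist mice Kcnh7 had 1.80 (SE 0.93, adjusted p = 0.241) and Kcnh8 4.18 (SE 1.42, adjusted p = 0.0657), which was called under 7 of 15 alternatives. Kcnh7 overlaps the antisense-strand gene Gca. Kcnh1 was called (2.91, SE 0.94, adjusted p = 0.0368), and lost the call on leaving out any library except non-neuronal control replicates 2 and 3 (4.24 without replicate 3). Kcnh2 (Erg1) had groups that did not overlap, at 20.7, 30.5, 35.8 and 24.8 CPM against 8.58, 13.5, 18.5 and 3.11 CPM, and did not pass (1.45, SE 0.57, adjusted p = 0.0834).

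The calcium-activated pore genes Kcnma1, Kcnn2 and Kcnn3 were present in both populations, and the BK beta1 subunit was far lower in neuronal nuclei. Kcnma1, the pore of the BK channel (chromosome 14, 23289431 to 24014491), had 347, 389, 300.2 and 406 CPM in neuronal control and 171, 79.6, 225 and 217 CPM in non-neuronal control libraries (1.15, SE 0.29, adjusted p = 0.00955). In agonist mice it had 294, 368, 470 and 463 CPM against 51.0, 58.7, 282 and 265 CPM, without overlap and without passing the test (1.28, SE 0.52, adjusted p = 0.129). Kcnn3, the pore of SK3 (chromosome 3, 89520164 to 89675132), had 134, 163, 125 and 151 CPM in neuronal control and 171, 102, 47.5 and 323 CPM in non-neuronal control libraries, so the groups overlapped (-0.09, SE 0.44, adjusted p = 0.915). In agonist mice the values were 78.9, 146, 143 and 219 CPM against 150, 130, 391 and 272 CPM (-0.68, SE 0.46, adjusted p = 0.396). Per kb of exon Kcnn3 led the family in non-neuronal agonist libraries, at 22.6 ± 11.6 CPM per kb (SD, n = 4), though the libraries of Kcnmb1 and Kcne3, next in order, overlapped it. Kcnn2 (SK2) also did not pass in either treatment (0.13, SE 0.52, adjusted p = 0.888 in control mice).

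Kcnmb1, the BK beta1 subunit that raises the channel's calcium sensitivity in smooth muscle (chromosome 11, 33963013 to 33973641), had 1.05, 3.08, 0.483 and 4.97 CPM in neuronal control and 42.9, 40.5, 38.0 and 161 CPM in non-neuronal control libraries. In agonist mice it had 0, 0.219, 3.11 and 0.278 CPM against 23.8, 33.9, 171 and 20.1 CPM. The populations did not overlap under either treatment, and the log2 fold change was -4.79 (SE 0.76, adjusted p = 0.00051) in control and -6.05 (SE 1.34, adjusted p = 0.00725) in agonist mice. It was -3.95 and -4.85 without the highest library of each, non-neuronal control replicate 4 and non-neuronal agonist replicate 3, and -5.38 without neuronal control replicate 4 and -8.23 without neuronal agonist replicate 3. Those 2 non-neuronal libraries also had the highest sums of the 6 smooth muscle markers in their groups, 12260 and 5662 CPM, against 2935 to 4641 and 1578 to 4441 CPM in the others. They were likewise highest in their groups for Kcnn3 (323 and 391 CPM), for the 5 markers of fibroblasts and PDGFRA-positive cells (1336 and 805.6 CPM) and for the pan-neuronal markers (311.6 and 234.7 CPM). The part of these marker levels in the result was not tested. All 6 smooth muscle markers were lower in neuronal nuclei under both treatments (median -3.54 and -3.94), and none was at 0 in any group. The neuronal beta subunit, Kcnmb4 (beta4), was low in both populations of control mice, at 19.9, 3.85, 4.11 and 13.6 CPM in neuronal and 0.296, 4.88, 0 and 14.2 CPM in non-neuronal libraries, and did not pass (1.16, SE 1.17, adjusted p = 0.527).

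Kcne3 (chromosome 7, 100176502 to 100184869), the accessory subunit that keeps Kcnq1 open in epithelium, had the largest negative fold change of the family in control mice. It had 0, 0.257, 0.483 and 1.57 CPM in neuronal control and 36.7, 51.4, 89.1 and 15.5 CPM in non-neuronal control libraries (-6.21, SE 0.88, adjusted p = 0.000221), and -7.26 without neuronal control replicate 4. Agonist libraries had 0, 0.657, 0 and 0 CPM in neuronal and 11.7, 45.6, 5.75 and 41.0 CPM in non-neuronal nuclei, or 3 against 331 counts. The ratio of these pooled counts over library totals, without TMM, was 0.0110 (95% exact interval 0.00225 to 0.0323). The fitted value was -6.98 (SE 1.55, adjusted p = 0.00745), and -9.53 without neuronal agonist replicate 2, which held all 3 counts. The 5 epithelial markers, by library size without TMM, summed to 6316, 5138, 10780 and 1504 CPM in non-neuronal control replicates 1 to 4. In the agonist ones they summed to 2491, 1810, 825.7 and 3445 CPM. Kcne3 was highest and lowest in the same control libraries as these markers, and lowest in the same agonist library. Its highest agonist library depended on the scale. By TMM-scaled CPM it was replicate 2, and by counts it was replicate 4, as for the markers (177 counts, against 101 in replicate 2). In neuronal libraries the markers summed to 4.29 to 97.1 CPM, none at 0 in either group, and their part in the result was not tested. The other KCNE genes were not tested in either comparison between populations. Kcne2 had a total of 1, 21, 17 and 0 counts in neuronal control, neuronal agonist, non-neuronal control and non-neuronal agonist libraries.

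K2P leak channels, with 14 genes, were mostly scarce, and 4 were tested in control and 5 in agonist mice. Kcnk10 (TREK-2, opened by stretch and lipids) had 44.2, 63.9, 47.6 and 37.4 CPM in neuronal control and 5.62, 3.75, 3.59 and 0.777 CPM in non-neuronal control libraries (3.90, SE 0.58, adjusted p = 0.000318). In agonist mice non-neuronal replicates 1 and 3 were high, at 22.7 and 52.3 CPM, and replicates 2 and 4 low, at 0.451 and 0.926 CPM, and with 36.8, 67.9, 61.2 and 40.5 CPM in the neuronal libraries the gene did not pass (1.45, SE 1.09, adjusted p = 0.450). Kcnk6 (TWIK-2) had 0.252, 0, 0 and 0 CPM in neuronal agonist and 20.03, 89.8, 6.54 and 4.40 CPM in non-neuronal agonist libraries, or 1 against 296 counts. The ratio of these pooled counts over library totals, without TMM, was 0.00408 (95% exact interval 0.000103 to 0.0229). Kcnk6 was called (-8.34, SE 1.65, adjusted p = 0.00376), and its value was -6.79 without non-neuronal agonist replicate 2, -9.77 without neuronal agonist replicate 1, and -5.79 with adjusted p = 0.0838 without the 2 libraries over 30% mitochondrial counts. In control mice it was not tested in this comparison, with 15 against 325 counts. Kcnk1 (TWIK-1) had 0.524, 0, 5.08 and 0.784 CPM in neuronal control and 13.3, 24.03, 23.03 and 0 CPM in non-neuronal control libraries, where replicate 4 was at 0 (-3.11, SE 1.35, adjusted p = 0.114). Neither it nor Kcnk5 (-3.16, SE 1.28, adjusted p = 0.0913) passed in control mice.

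Proteins that bind these channels were read from a list of 25 genes. In control mice 20 were tested, 10 were higher in neuronal nuclei and 1 was lower, with a median log2 fold change of 0.64. Over all genes 11.8% were higher and 13.5% lower there, with a median of -0.11. In agonist mice 19 were tested, 6 were higher and 1 was lower, with a median of 1.96, against 6.67% higher, 6.97% lower and a median of -0.15 over all genes. Dpp6, the dipeptidyl-peptidase-like subunit of Kv4 channels, was higher by 4.48 (SE 0.54, adjusted p = 7.65e-05) in control and 4.96 (SE 0.65, adjusted p = 0.000209) in agonist mice. Kcnip4, a calcium-binding Kv4 subunit, was higher by 2.48 (SE 0.50, adjusted p = 0.0026) in control mice and had 2.25 (SE 0.82, adjusted p = 0.0866) in agonist mice. Dpp10 (0.24, SE 0.57, adjusted p = 0.803) and Kcnip1 (-0.26, SE 0.74, adjusted p = 0.838), of the same gene families, did not pass in control mice. In agonist mice they had -1.14 (SE 1.07, adjusted p = 0.568) and -1.29 (SE 1.23, adjusted p = 0.576). Lrrc55, a BK gamma subunit, was higher by 4.91 (SE 1.13, adjusted p = 0.00586) in control mice and was called in agonist mice too, where all 4 non-neuronal libraries were at 0. Of the synaptic scaffold genes, Dlg2 was higher by 3.45 (SE 0.33, adjusted p = 1.33e-05) and Dlg1 was lower by a log2 fold change of -1.67 (SE 0.27, adjusted p = 0.000505) in control mice.

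The agonist comparison asks whether channel transcripts moved within 14 h of 3-methylcholanthrene in either population, and none passed the test. Cyp1a1, a classical target of the receptor, had 10 to 29 counts in neuronal agonist and 0 in every neuronal control library, and 19 to 712 against 0 to 1 in non-neuronal ones. In neuronal nuclei 35 genes were tested and 0 called by edgeR's quasi-likelihood test, which called 0 of 14182 genes (0%). DESeq2 called 0 of the 35 and 9 genes in all. At an unadjusted p under 0.05 there were 4 of the 35 and 711 genes (5.01%) in all. Those 4 were Kcnt2 (-0.69, SE 0.20), Kcnb2 (-0.75, SE 0.27), Kcnc2 (0.61, SE 0.22) and Kcna4 (-1.11, SE 0.48), each with an adjusted p of 0.903. The 35 log2 fold changes had a median of 0.12, against 0.08 over all genes, and ran from -1.20 to 0.92. Libraries did not overlap for Kcnt2, Kcnc2 and Kcna4, 3 of 35, against 3.64% of all genes. The Kcnt2 value was -0.54 without neuronal agonist replicate 1, which had the fewest genes with a count and also the lowest Kcnt2, Kcng3, Kcnq3 and Kcna4 of its group. That replicate had the highest Kcnt1 (325 CPM) and Kcnh2 (153 CPM) of its group.

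**Figure D4:**
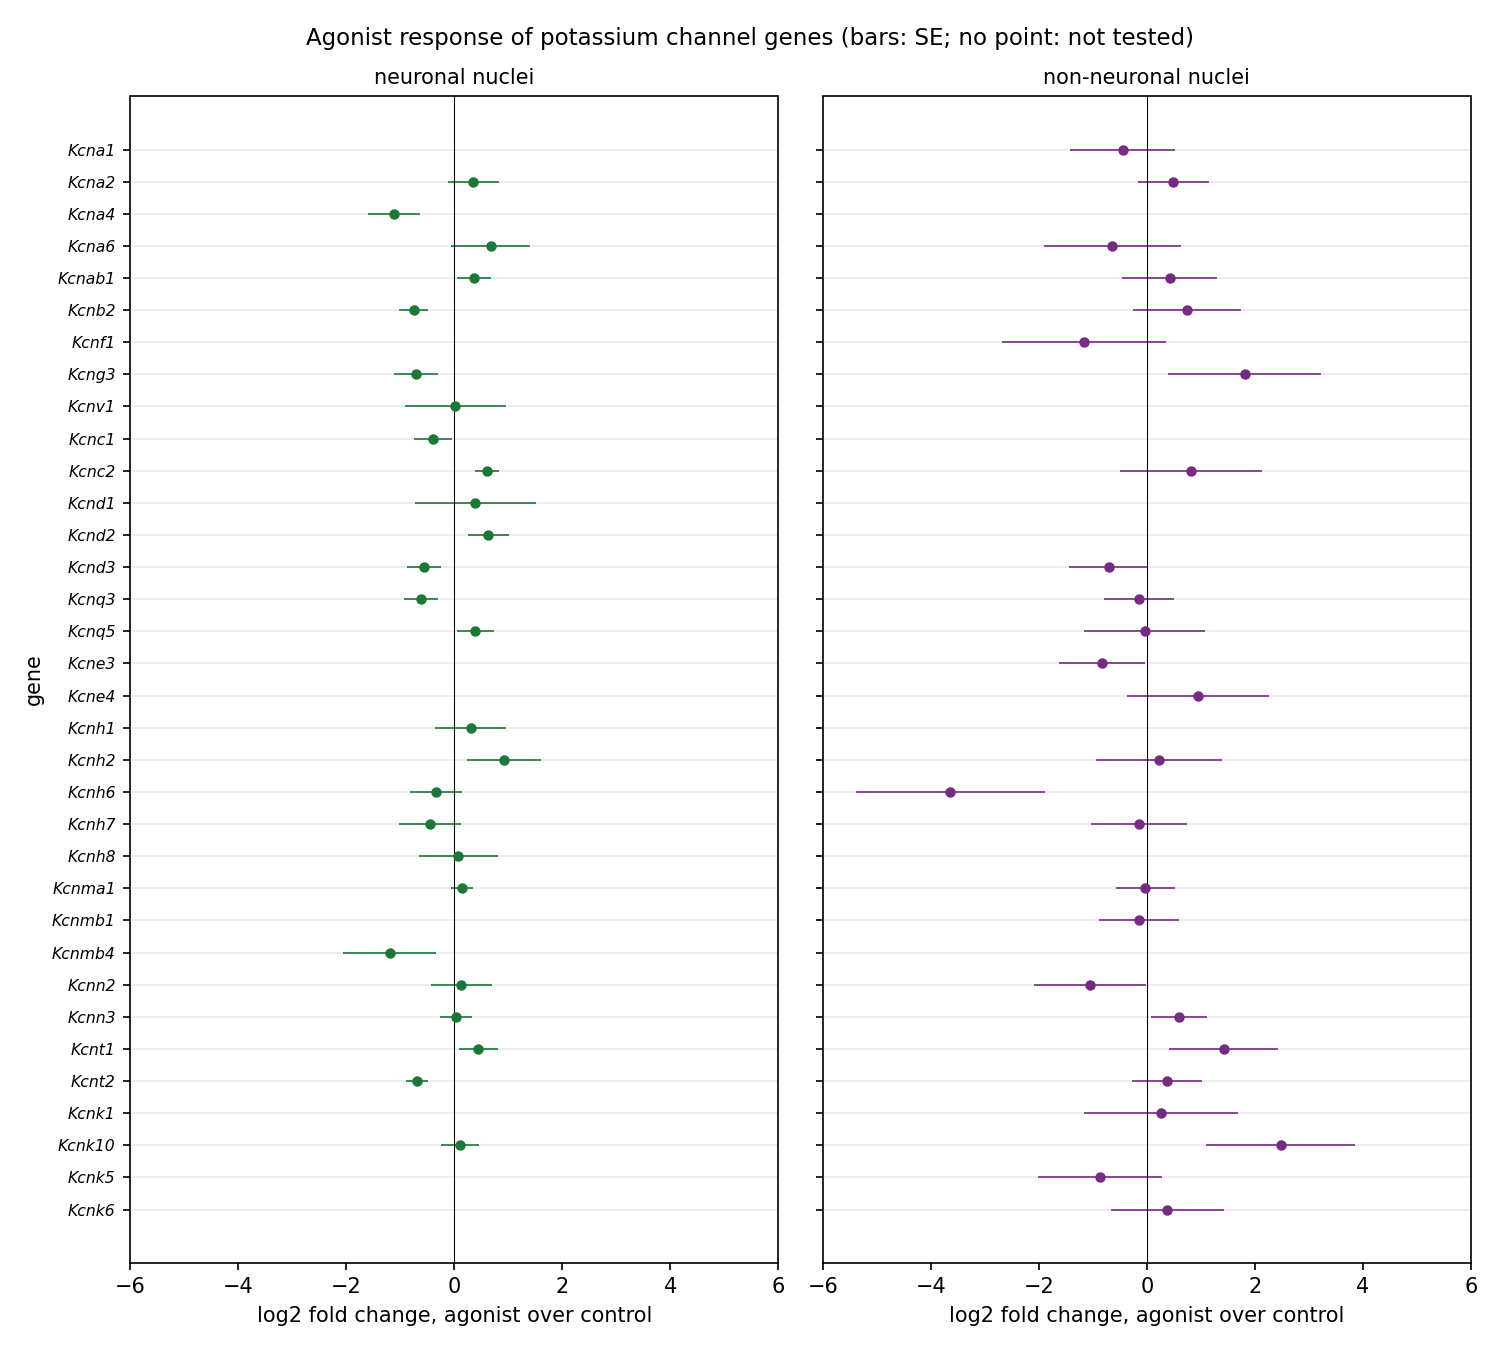
Log2 fold change of agonist over control with its SE (bars) for 34 potassium channel genes tested in neuronal nuclei (left) or non-neuronal nuclei (right) and named in the text, with no point where a gene was not tested. No gene passed the test in either panel, the points of neuronal nuclei lie between -1.20 and 0.92, and those of non-neuronal nuclei spread from -3.64 (Kcnh6) to 2.48 (Kcnk10).

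In non-neuronal nuclei 31 genes were tested and 0 called by edgeR, against 2 of 14846 genes in all (0.0135%). DESeq2 called 0 of the 31 and 35 genes in all, and at an unadjusted p under 0.05 there were 0 of the 31 and 715 genes (4.82%). The median log2 fold change was -0.03, against 0.13 over all genes, and no gene had groups that did not overlap, against 3.42% of all genes. The errors were wide, with a median SE of 1.04 against 0.47 in neuronal nuclei. The extreme values were Kcnh6 (-3.64, SE 1.75), with 74.3, 4.50, 4.49 and 0 CPM in control and 0, 0.451, 0.262 and 5.32 CPM in agonist libraries, and Kcnk10 (2.48, SE 1.38), each with an adjusted p of 0.954. Kcnma1 (-0.03, SE 0.55) and Kcnmb1 (-0.15, SE 0.74) had values near 0.

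The test of whether the response differed between populations, an interaction over all 16 libraries, called 0 of 46 genes by edgeR's quasi-likelihood test and 0 of 18566 genes in all (0%). At an unadjusted p under 0.05 there were 5 of the 46 and 1484 genes (7.99%) in all. Among them were Kcnd2 (3.70, SE 1.03), Kcnc1 (2.61, SE 1.07), Kcng3 (-2.50, SE 1.05) and Kcne4 (-5.17, SE 2.17), as neuronal minus non-neuronal response. DESeq2 called 1 of the 46, Kcnd2 (3.69, adjusted p = 0.0459), and 99 genes in all, where edgeR gave Kcnd2 an adjusted p of 0.409 and its other alternatives 0.138 to 0.834. Kcnd2 had 52 counts in the non-neuronal control and 6 in the non-neuronal agonist libraries, so the difference rests on few non-neuronal counts. Kcne4 had 10 counts in neuronal control and 0 in neuronal agonist libraries. It had 51 counts in non-neuronal control and 108 in non-neuronal agonist libraries, 84 of the latter in replicate 4. The channel partner genes had 0 calls in each of the agonist comparisons and in the interaction.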

How the data were processed

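Nuclear RNA of 16 libraries was sequenced in 75-base single-end reads, per the labels' protocols. The authors deposited expected counts per gene, and the submitters' processing notes name STAR 2.5.2, RSEM 1.3.0, DESeq2 1.10.1 and GRCm38. Neither the annotation version nor strandedness of the counting is given in the sources used here. Of the 51912 identifiers, 51719 were paired with a symbol through GENCODE M21 for GRCm38.

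Expected counts were rounded to whole numbers. Genes were filtered with filterByExpr (minimum count 10, minimum total 15) and tested with edgeR 4.0.16's quasi-likelihood test (robust, TMM; R 4.3.3, limma 3.58.1), on the 8 libraries of each comparison or all 16 for the interaction, with Benjamini-Hochberg adjustment over all genes tested. Levels use TMM over all 16 libraries, so they need not match a fold change exactly. Levels per kb use union exon length. Fits were tested on simulated data with large planted changes, in genes above a floor on mean count. Those data do not show how the fits handle small changes or genes with few counts. Alternatives were library size alone, DESeq2 1.42.0, no filter, all 4 groups in 1 fit, a replicate block, each library left out, libraries over 30% mitochondrial counts left out, and mitochondrial genes left out. Totals of 2663738 to 4902303 counts per library set the precision, and the exact binomial intervals for ratios of pooled counts cover counting error only.

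The genes and lists were chosen with earlier results of these data known. Some members are not reported by name here and count only in totals. Fold changes are given for the other genes called in any comparison. Values per library are given for the 6 called genes with the largest fold change in each direction of each comparison between populations and for the gene highest per length of each role class in either population. Kcnn2, Kcnk5, Kcnq1 and Kcne4, given by value outside this rule, were chosen after their values were seen. Marker and partner lists were summed as CPM by library size. No list other than those named in the report is quoted, apart from glia (1 of 2 tested lower in control mice, 0 of 3 in agonist mice), interstitial cells of Cajal (2 of 3 lower and Etv1 higher in control mice, 2 of 3 lower in agonist mice), blood endothelium (3 of 4 lower under both), macrophages (3 of 4 and 2 of 3 lower) and epithelium (5 of 5 and 4 of 5 lower).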

Additional observations from a re-analysis of the deposited data

Results flagged for a closer look

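Each of 84 groups of 4 libraries (a gene in a group, with at least 40 counts) was checked for a library apart from the others by Dixon's 95% criterion on the gap over the range, and 10 stood apart. Chance gives about 1 in 20 for normally distributed values, a rate that need not hold for CPM on a linear scale. The groups also share the same 16 libraries, so the number that stood apart does not measure an excess over chance. All were highest values. Non-neuronal control replicate 4 had 160.8 CPM of Kcnmb1 (next 42.9), and it also had the highest sums of smooth muscle and pan-neuronal markers of its group. Non-neuronal agonist replicate 3 had 171.3 CPM of Kcnmb1 (next 33.9) and 18.3 CPM of Kcnf1 (next 0.756). Neuronal agonist replicate 1, which had the fewest genes with a count, had 152.8 CPM of Kcnh2 (next 29.1) and 39.8 CPM of Kcna1, which was at 0 in the other 3 libraries. Neuronal agonist replicate 4 had 289.7 CPM of Kcnc2 (next 199.7). Non-neuronal agonist replicate 4 had 114.8 CPM of Kcnab1 (next 24.8), and replicate 1 of that group 19.3 CPM of Kcnmb4 (next 2.35). Non-neuronal control replicate 1 had 74.3 CPM of Kcnh6 (next 4.50), and replicate 2 of that group 18.02 CPM of Kcnv1 (next 2.09). No cause of these values was tested. Without neuronal agonist replicate 1, Kcna1 was lower in neuronal nuclei of agonist mice with an adjusted p of 0.019 by edgeR's quasi-likelihood test, against 0.798 with it.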

How the results depend on the processing

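The number of potassium channel genes called moved by over 1.5 times in 3 cases. With all 4 groups in 1 fit, 16 (12 higher, 4 lower) were called in control mice, against 25, and 21 (16 higher, 5 lower) in agonist mice, against 13. DESeq2 called 1 gene in the interaction, against 0. Leaving out each library in turn gave 22 to 29 calls in control mice, 10 to 14 in agonist mice and 0 in the agonist comparisons and the interaction. Replicate numbers did not pair the libraries throughout (correlations of same-numbered deviations -0.103 to 0.179, and 10 of 24 same-number pairs correlated best). Replicate 4 correlated best with its own number in every pair of groups (0.021 to 0.179), and replicates 1 to 3 in some pairs only. Whether same-numbered libraries share a mouse is not in the labels. A replicate block gave 24 (20 higher, 4 lower) and 15 (12 higher, 3 lower) calls, and 0 in the others. No called value changed sign. For the genes called in either population comparison, and the 2 of lowest p in each agonist comparison and the interaction, 587 values under the alternatives kept their side of the threshold, 59 lost it and 1 gained it. Of the genes not called, 6 of 14 in control mice, 9 of 25 in agonist mice, 0 in the agonist comparisons and 1 of 46 in the interaction were called under at least 1 alternative. Under the replicate block Kcna4 lost its call in agonist mice (4.89, adjusted p = 0.0761 by edgeR's quasi-likelihood test) and Kcnd1 in control mice (2.41, adjusted p = 0.0917). Of the genes called, 14 of 25 in control mice and 9 of 13 in agonist mice were called under every alternative. In control mice 6 (Kcna1, Kcnab1, Kcnd3, Kcnh7, Kcnh8 and Kcnma1) lost the call in the fit of all 4 groups alone, and others, Kcnd1, Kcnh1 and Kcnq5 among them, lost it there and elsewhere. The cause was not tested. Over all genes, the counts were 3876 in control mice and 2710 with all groups in 1 fit. They were 1918 in agonist mice, 2937 with DESeq2, 3324 without the filter and 4590 with all groups in 1 fit. In neuronal nuclei the agonist gave 0 calls, 9 with DESeq2 and 152 without the filter, and in non-neuronal nuclei 2, 35 and 88, 11 with all groups in 1 fit and 0 or 1 in 9 others. The interaction gave 0, 99 with DESeq2, 110 without the filter, 9 without non-neuronal agonist replicate 3 and 7 without the libraries over 30% mitochondrial counts. Library size alone moved the median of all genes from -0.11 to 0.11 in control mice, from -0.15 to 0.43 in agonist mice and from 0.13 to -0.28 for the agonist in non-neuronal nuclei, and the fold changes of single genes with it. At this depth 27 of the 73 genes were not tested, and no difference in them was detectable.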
